A study of Mus musculus with 4 samples.

Results

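Early proximal tubule (S1) cells were taken as the droplet barcodes of mouse kidney in which RNA of early tubule transporters was found without RNA of the distal nephron. A barcode was a member when it held 2 or more UMIs (unique molecular identifiers, each marking 1 captured RNA molecule) of Slc5a12, Slc5a2, Slc7a7 and Slc7a8 together. It also had to hold fewer UMIs of the late segment genes Cyp7b1, Mep1b, Slc22a19 and Aadat, 0 UMIs of the distal genes Slc12a1, Slc12a3, Umod and Egf, and fewer than 12 UMIs per 10000 of the endothelial genes Pecam1, Cdh5, Kdr and Tie1. The rule found 146 members among 10535 barcodes in all, or 1.39%. Members were thus chosen by the measured levels of 16 genes, and the values of these genes describe the members and are not tested.

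The first stretch of the proximal tubule receives the filtrate of the glomerulus and takes back glucose, amino acids, phosphate, bicarbonate and filtered protein. Its apical membrane carries sodium-coupled uptake systems, such as the glucose transporter Slc5a2 and the lactate transporter Slc5a12. Its basolateral membrane passes the solutes on to the blood, in part through the amino acid exchangers Slc7a7 and Slc7a8. Angiotensin II is known to act on this segment and to raise its sodium and bicarbonate reabsorption.

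The series holds 4 samples of kidneys of C57BL/6J mice aged 10 to 14 weeks, 1 sample for each of 4 groups. One pair of groups was angiotensin II-induced hypertension with its saline control, and the other was salt sensitive hypertension with its control on a normal diet. All groups were prepared alike: all kidneys of a group were put together, made into a cell suspension, and passed through magnetic selection with antibodies against CD31 and then against podoplanin, before 3' droplet libraries were made. The selection was designed for lymphatic endothelium, so tubule cells in these libraries are cells that were carried through it. The control table joins 2 libraries marked by their barcode endings, here called control library 1 and control library 2, and no source used here says which of them was the saline and which the normal-diet control. Since each group was 1 library of pooled kidneys, no p-value was computed, and all intervals below are exact 95% intervals for counting error only.

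The promoters of 2 early segment genes, Slc34a1 and Prodh2, are shown. Slc34a1 encodes the phosphate transporter of the brush border, and Prodh2 encodes hydroxyproline dehydrogenase. The 200 bases are the part farthest upstream of the 250-base window before the RefSeq start site on GRCm38.p6. They run 5′ to 3′ on the plus strand, and the capitals mark the core GTTAAT bound by the tubule transcription factor HNF1, or its reverse complement ATTAAC.
Slc34a1, chr13:55399398-55399597: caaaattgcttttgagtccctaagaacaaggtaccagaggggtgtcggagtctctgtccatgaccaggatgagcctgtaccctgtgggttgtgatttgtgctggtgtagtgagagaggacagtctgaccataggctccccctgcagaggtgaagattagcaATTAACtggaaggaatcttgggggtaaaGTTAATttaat
Prodh2, chr7:30493408-30493607: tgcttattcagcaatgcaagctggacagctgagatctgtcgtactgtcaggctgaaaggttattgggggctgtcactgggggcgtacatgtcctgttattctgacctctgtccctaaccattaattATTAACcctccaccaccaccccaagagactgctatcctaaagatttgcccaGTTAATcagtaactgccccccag
Each of these windows held 2 matches, 1 on each strand, more than any other promoter of the marker and early segment genes. Among the 16 marker and early segment genes, 14 had a promoter in the RefSeq table, and 4 of those 14 (Slc34a1, Prodh2, Slc7a7 and Slc5a10) held that core in the 250 bases of at least 1 start site. Among all 32851 promoters listed, 6.43% held it on either strand. This share counts start sites and the other counts genes, so the 2 differ in unit. The core CAAAGTCCA of the HNF4 site, or its reverse complement, was in 0 of the 14 and in 0.384% of all promoters. A match of letters is a description of the sequence and not evidence that the factor binds there.

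The members were not spread evenly over the libraries. They were 70 of 2837 barcodes in the angiotensin II library, or 2.47% (1.93% to 3.11%). They were 13 of 3284 in the salt-sensitive library, or 0.396% (0.211% to 0.676%). They were 8 of 2406 in control library 1, or 0.333% (0.144% to 0.654%), and 55 of 2008 in control library 2, or 2.74% (2.07% to 3.55%). The angiotensin II library and control library 2 thus had similar shares, and the salt-sensitive library and control library 1 had similar lower shares, so that the 2 controls differed from each other by as much as either model did from a control. After every barcode was thinned to 500 UMIs before the rule, which left out 208, 148, 176 and 852 barcodes in the same order, the shares were 2.13%, 0.383%, 0.583% and 2.77%. The share of endothelial barcodes moved too: 1186 of 2837 barcodes in the angiotensin II library and 1404 of 3284 in the salt-sensitive library passed an endothelial rule (12 or more UMIs per 10000 and at least 4 UMIs of the 4 endothelial genes), against 10 of 2406 and 122 of 2008 in the control libraries. A different number of tubule cells in the kidney and a different carry-over through the selection cannot be told apart.

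The members were shallow barcodes. Angiotensin II members had a median of 705.5 UMIs (421 to 1770) and salt-sensitive members of 719 (467 to 5159). Those of control library 1 had 578.5 (464 to 1963) and those of control library 2 had 553 (348 to 4150). The medians of all barcodes of these libraries were 1780, 1770, 965 and 551.5 UMIs. Summed over members, 59847, 17533, 6517 and 40697 UMIs were available, so the salt-sensitive library and control library 1 limit each comparison they enter.

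**Figure D1:**
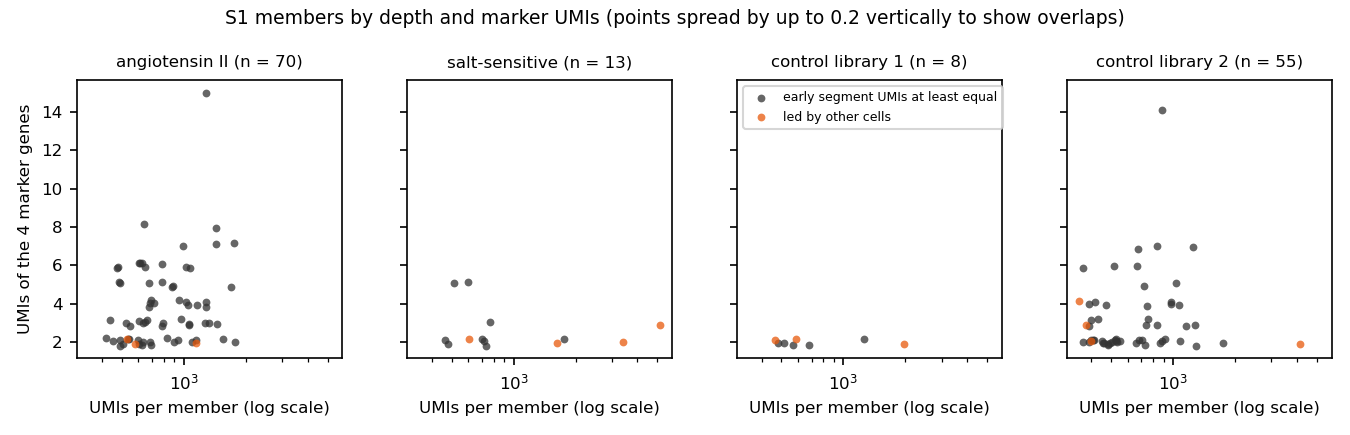
Each point is 1 member barcode, with its UMIs on a log axis and its UMIs of the 4 marker genes on the vertical axis (points are spread slightly to show overlaps), by library. Of 146 members 69 lie at the lower limit of 2 marker UMIs, and the deepest barcodes of the salt-sensitive and control libraries are members led by other cells (orange).

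At the edge of the rule, 69 of the 146 members held exactly 2 marker UMIs and 77 held 3 or more. Control library 1 had 0 members with 3 or more, the salt-sensitive library had 4, control library 2 had 26 and the angiotensin II library had 47. Just outside, barcodes that met every other limit with 1 marker UMI numbered 68, 28, 16 and 58 in the order angiotensin II, salt-sensitive, control library 1 and control library 2. A further 1187 barcodes stayed outside only because of distal UMIs, and 142 of these held exactly 1. Within the members, 31 owed their place to a single marker gene, 75 held 2 of the 4 genes, 37 held 3 and 3 held all 4. Slc5a12 was found in 98 members, Slc5a2 in 89, Slc7a7 in 69 and Slc7a8 in 48.

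Early tubule RNA was also present outside the members, which sets the background for every share. Slc5a12 had a UMI in 62.9%, 61.5%, 87.5% and 70.9% of members in the order angiotensin II, salt-sensitive, control library 1 and control library 2. In endothelial barcodes, which should lack it, the shares were 2.78%, 3.42%, 10.0% and 5.74% at median depths of 4775.5, 2446.5, 2092 and 2837 UMIs. In distal barcodes (2 or more UMIs of the distal genes, and more than of the early or late markers) they were 27.2%, 34.0%, 32.6% and 24.8% at median depths of 1252.5, 1279.5, 1096 and 579 UMIs. With all barcodes thinned to 500 UMIs, Slc5a12 remained in 49.2%, 45.5%, 50% and 50% of members, against 10.4%, 12.9%, 14.3% and 16.9% of distal and 0.422%, 0.356%, 0% and 1.65% of endothelial barcodes. Slc34a1, which the rule did not use, had a UMI in 92.9%, 92.3%, 75% and 90.9% of members and in 89.1%, 93.7%, 93.7% and 84.4% of distal barcodes. These Slc34a1 shares were not thinned. Members had a lower median depth than distal barcodes in each library, so the shares are not at equal depth. Distal barcodes thus carried early tubule RNA at a share far above that of endothelial barcodes, and whether they hold more than 1 cell or free RNA was not tested.

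The label was checked with 11 early segment genes that the rule did not use: Slc2a2, Slc4a4, Slc34a1, Slc6a19, Slc13a3, Slc9a3, Gatm, Lrp2, Cubn, Prodh2 and Slc5a10. Their summed level was 12415 counts per 1000000 UMIs (CPM) in angiotensin II members, 6217 in salt-sensitive members, 4143 in members of control library 1 and 11377 in members of control library 2. In distal barcodes of the same libraries it was 6935, 7094, 7854 and 8121 CPM, and in endothelial barcodes 192, 366, 873 and 341 CPM. The early segment sum was therefore above that of distal barcodes in 2 of 4 libraries, and the data went against the label in control library 1 and, with all members kept, in the salt-sensitive library.

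Part of this came with members whose RNA was led by other cells. In 14 of the 146 members, 3, 4, 3 and 4 in the 4 libraries in the same order, UMIs of an endothelial and a myeloid list outnumbered those of the early segment list. These 14 held 3.77% of the UMIs of angiotensin II members and 61.6% of those of salt-sensitive members. The shares were 46.3% for control library 1 and 13.0% for control library 2. They were singled out after their values were seen, and results below are given with and without them. The other 132 members (67, 9, 5 and 51) are called tubule-led, and they had early segment sums of 12675, 13949, 6568 and 12929 CPM. The early segment, endothelial and myeloid lists were used to choose the tubule-led members. Levels of their genes in those members, single genes included, are descriptions only. The salt-sensitive level then lay with those of the angiotensin II library and control library 2, and control library 1 stayed below its own distal barcodes.

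**Figure D2:**
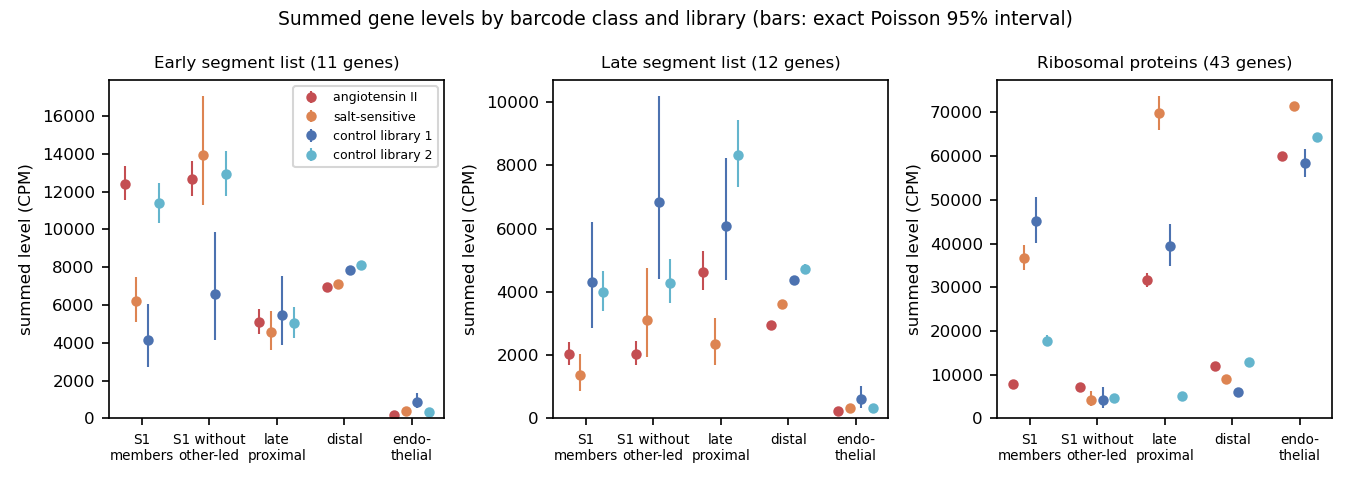
Summed levels in CPM of 11 early segment, 12 late segment and 43 ribosomal protein genes in 5 classes of barcodes, with 1 point for each library and exact Poisson intervals. For tubule-led members, the early segment sums of 3 libraries lie between 12675 and 13949 CPM, and the ribosomal sums of all 4 lie between 4283 and 7275 CPM.

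RNA of other cells in the members was measured with lists for each cell type that the selection could hold. All 15 endothelial genes outside the rule were detected in angiotensin II members at a summed 2189 CPM, and the sums were 9582 CPM in salt-sensitive members, 1841 in control library 1 and 688 in control library 2. In tubule-led members they were 1962, 2374, 1713 and 621 CPM. The 10 myeloid genes summed to 384, 0, 12276 and 516 CPM, and to 313, 0, 0 and 282 CPM in tubule-led members. Of 11 thick limb and distal convoluted tubule genes outside the rule, such as Cldn10 and Kcnj1, the sums were 1337, 570, 1688 and 1253 CPM. Cldn10 alone stood at 551, 57.0, 307 and 541 CPM, and whether this RNA came from distal cells was not tested. Intercalated cell genes summed to 752, 342, 1228 and 565 CPM and podocyte genes to 518, 1597, 921 and 418 CPM, with the defining podocyte gene Nphs1 at 0 in 3 of 4 libraries. Lymphatic endothelial genes summed to 134, 285, 0 and 98.3 CPM with Prox1 at 0 in all 4 libraries, principal cell genes to at most 98.3 CPM and stromal genes to at most 535 CPM. Endothelial and myeloid RNA therefore differed between the libraries compared below, and results are given without the members it led; a stricter rule with an endothelial sum of 0 is among the alternatives.

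The members were first set against late proximal barcodes, found by the same rule with the early and late markers exchanged (109 barcodes; 44, 11, 8 and 46 in the 4 libraries). The rule used this contrast, so the values describe how far the segments were separated. A log2 ratio here is that of CPM + 5, a gene was counted with 20 or more UMIs over both sides, and past 2-fold means a log2 ratio of 1 or more, or of -1 or less. Of 3007 genes counted, 257 (8.55%) were past 2-fold higher in the members and 207 (6.88%) past 2-fold lower. Of the same 3007 genes, 275 were higher and 125 lower in each of the 4 libraries. How many genes would share a direction by counting error alone was not tested.

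The early segment genes were mostly higher in the members, with 9 of 11 above 0, 7 past 2-fold and a median log2 ratio of 1.30, against 0.03 over all genes counted. Prodh2 had 30, 2, 0 and 17 UMIs in members and 3, 1, 1 and 1 in late proximal barcodes, a log2 ratio of 2.64 (1.51 to 4.25). Slc2a2, the basolateral glucose transporter, had 30 UMIs against 4, a log2 ratio of 2.47. Slc34a1 stood at 4913, 3422, 1688 and 4570 CPM in members and at 1666, 1618, 1631 and 1836 CPM in late proximal barcodes. Its log2 ratio was 1.37 (1.13 to 1.63) over all libraries, and 1.56, 1.08, 0.05 and 1.31 within them, so members of control library 1 held no more Slc34a1 RNA than late proximal barcodes. Slc4a4, the basolateral sodium bicarbonate cotransporter, followed the same order with 1.73, 0.03, -1.93 and 1.25, and Gatm, which makes the creatine precursor, had a log2 ratio of 1.88. The endocytic receptors Lrp2 (0.69) and Cubn (0.42) were closer to equal, and Slc13a3 (-0.03) and Slc5a10 (-0.67) were not above late proximal barcodes. Over tubule-led members the median was 1.54, with 10 of 11 above 0.

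The late segment genes ran the other way. Of 10 counted, 0 were above 0 and 6 were past 2-fold lower, with a median of -1.38. Slc6a18, a brush border amino acid transporter, stood at 134, 285, 307 and 541 CPM in members and at 970, 335, 1334 and 1496 CPM in late proximal barcodes, a log2 ratio of -1.78. Slc7a13, the cystine and aspartate carrier of the late segment, had 22 UMIs against 57 (-1.64), and Atp11a, a phospholipid flippase, had 67 against 136 (-1.31). Slco1a6 (-0.02), Slc17a3 (-0.06) and Slc15a2 (-0.05) were near equal, so the list did not separate the classes gene by gene. With tubule-led members alone the median was -1.28 and 3 of 10 were above 0.

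**Figure D3:**
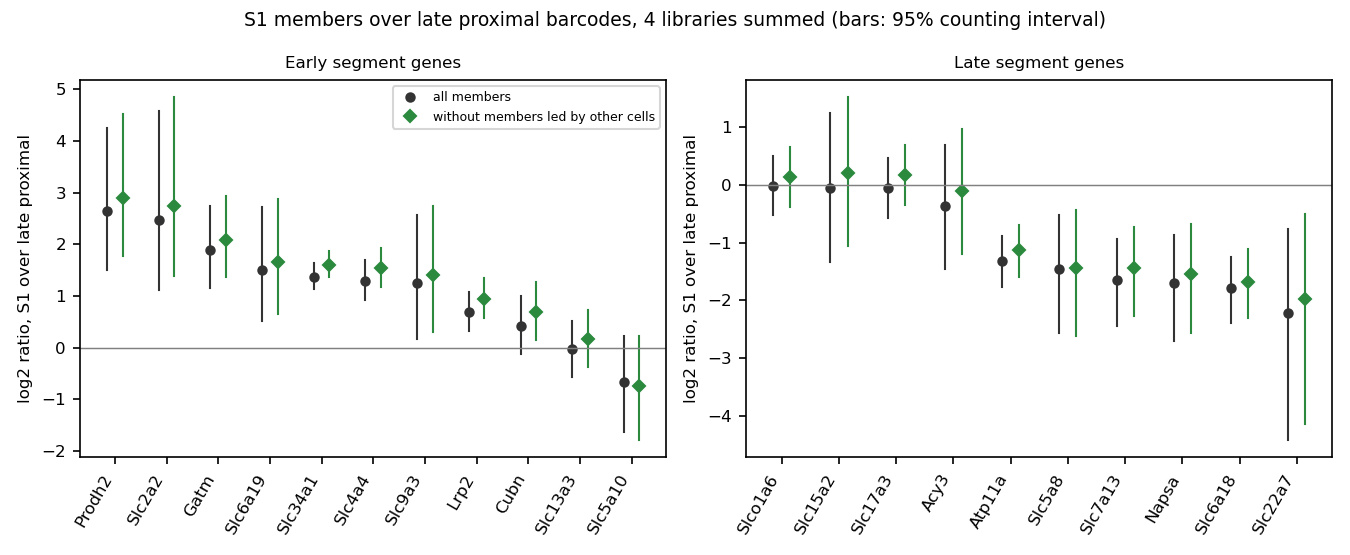
Log2 ratio of CPM + 5 in members over late proximal barcodes, summed over the 4 libraries, for early (left) and late (right) segment genes, with all members (circles) and without those led by other cells (diamonds); bars are 95% counting intervals of the plain ratio. Early segment genes run from 2.64 for Prodh2 down to -0.67 for Slc5a10, and late segment genes from near 0 for Slco1a6 down to -2.22 for Slc22a7.

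Genes outside the lists that separated the members in every library were named by the smallest ratio over the 4 libraries. Angpt1, a ligand of the endothelial receptor Tek, had 42 UMIs in members and 2 in late proximal barcodes, a log2 ratio of 3.79 (2.15 to 7.19). Adra1a, the alpha-1A adrenergic receptor, had 37 against 2 (3.61, 1.96 to 7.01). On the lower side, Fgf1, a fibroblast growth factor, had 56 against 177 UMIs (-1.94), Ldc1 28 against 101 (-2.12) and Tet2, a DNA demethylase, 18 against 56 (-1.90). Ghr, the growth hormone receptor, had 303 against 741 UMIs, a log2 ratio of -1.58 (-1.78 to -1.39). In tubule-led members the ratios of Angpt1, Adra1a, Fgf1 and Ghr were 3.72, 3.84, -1.73 and -1.35, so these differences were as large or nearly as large there.

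Metabolic and transport groups were described in the same contrast. Amino acid and vitamin metabolism had 33 genes counted, of which 21 were above 0, 10 past 2-fold higher and 3 past 2-fold lower, with a median of 0.50. Its higher members included Ass1 and Asl, which make arginine from citrulline (log2 ratios of 1.44 and 1.89). Bhmt2 (-1.78) was among the lower ones. Basolateral exit and bicarbonate transport had 7 of 10 genes above 0 with a median of 0.76, among them the aromatic amino acid carrier Slc16a10 (1.73). Proximal transcription factors had 5 of 13 genes past 2-fold higher, Maf (103 UMIs against 26, log2 ratio 1.67) among them, while Hnf4a (-0.46) was lower. Nuclear genes of oxidative phosphorylation had 27 of 39 genes below 0 (median -0.28), and antioxidant and glutathione genes 14 of 17 (median -0.27). All 43 ribosomal protein genes were below 0, with a median of -0.85. The late proximal barcodes were not trimmed of those led by other cells, and their own ribosomal sum reached 69862 CPM in the salt-sensitive library, and the part of that RNA in the ribosomal difference was not tested.

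Against distal barcodes, the members were higher past 2-fold for 530 of 11006 genes (4.82%) and lower for 1460 (13.3%). This contrast was used by the rule as well and is given for size only.

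The angiotensin II library was compared with both control libraries summed, since no source used here says which of them is its own saline control. Here 1231 genes were counted, with 87 past 2-fold higher in angiotensin II members (7.07%) and 129 past 2-fold lower (10.5%). The interval of the ratio lay clear of 0 for 46 of the higher and 92 of the lower genes. Among tubule-led members, 1043 genes were counted, 69 higher (6.62%) and 75 lower (7.19%). Control library 2 held 40697 of the 47214 control member UMIs, so the summed control is largely that library. It may be the normal-diet control of the other model. The median over all genes counted was 0.01, and -0.04 in tubule-led members.

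The late segment genes lay low in angiotensin II members: of 5 genes counted, 0 were above 0, 4 were past 2-fold lower and the median was -1.16. Over the alternative settings the median ran from -1.56 to -0.75, and it was -1.27 in tubule-led members. Slc6a18 had 8, 5, 2 and 22 UMIs in the order angiotensin II, salt-sensitive, control library 1 and control library 2, which is 134, 285, 307 and 541 CPM. The angiotensin II level was the lowest of the 4, and the log2 ratio over control was -1.89 (-3.29 to -0.72). Atp11a had 18, 4, 9 and 36 UMIs, or 301, 228, 1381 and 885 CPM, with a log2 ratio of -1.65 (-2.54 to -0.85). Both hypertension libraries lay below both control libraries for Atp11a. Slco1a6, an organic anion carrier, had 26, 2, 3 and 43 UMIs (-1.16), Slc7a13 had 8, 0, 0 and 14 (-1.12) and Slc17a3, a urate and phosphate carrier, had 29, 8, 7 and 28 (-0.61). Some of these genes were also lower in other barcodes of the angiotensin II library. Atp11a had log2 ratios of -0.90 in late proximal and -1.01 in distal barcodes, Slc7a13 of -1.38 and -0.81, and Slc17a3 of -0.95 and -0.66. Slc6a18 stood at -0.59 and -0.45 in these classes, and Slco1a6 at 0.28 and -0.29, so 2-fold was passed by Atp11a in distal and by Slc7a13 in late proximal barcodes. On GRCm38, Slc6a18 lies at chr13:73661752-73678023 (minus strand) and Atp11a at chr8:12757014-12868728 (plus strand).

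The early segment genes showed no comparable difference. Of 10 counted, 8 were above 0 and 0 past 2-fold, with a median of 0.35. The median was 0.14 in tubule-led members, -0.19 among members with 3 or more marker UMIs, and 2.55 over 8 genes against control library 1 alone, whose members held little early tubule RNA. Slc34a1 had 294, 60, 11 and 186 UMIs and a log2 ratio of 0.24 (-0.03 to 0.50), or 0.02 in tubule-led members. Slc4a4 had 143, 12, 2 and 76 UMIs and a log2 ratio of 0.53 (0.12 to 0.95), or 0.29 (-0.12 to 0.71) there. Slc9a3, the apical sodium proton exchanger that angiotensin II is known to regulate, had 14 UMIs against 12 in the summed control, a log2 ratio of -0.12. The glucose transporter Slc5a2, a rule gene, stood at 1320, 342, 460 and 1007 CPM, and Slc5a12 at 1487, 684, 1381 and 2408 CPM. These levels were set in part by the limit of 2 marker UMIs.

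**Figure D4:**
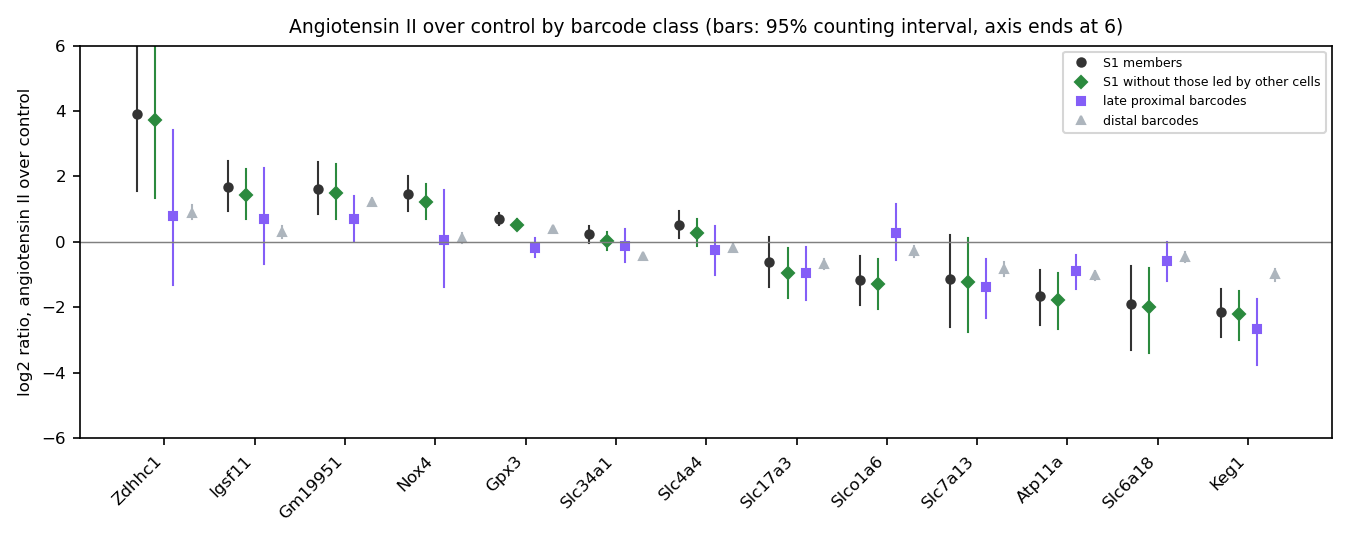
Log2 ratio of CPM + 5 in the angiotensin II library over the summed controls for 13 genes, in all members, in members without those led by other cells, in late proximal and in distal barcodes; bars are 95% counting intervals and the axis ends at 6. Nox4 is at 1.46 in members and near 0 in late proximal and distal barcodes, while Keg1 lies below 0 in all 4 classes.

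Nox4 was higher in angiotensin II members than in the members of each other library when all members were kept. It was not named by the rule for this comparison and was chosen after its values were seen. Nox4 encodes a NADPH oxidase that is known to be abundant in the proximal tubule and makes hydrogen peroxide. The gene lies at chr7:87246096-87398710 on the plus strand of GRCm38. It had 133, 8, 0 and 38 UMIs, or 2222 CPM (1861 to 2634), 456 CPM (197 to 899), 0 CPM (up to 566) and 934 CPM (661 to 1282) in the usual order of libraries. With all members the angiotensin II level lay above the other 3, and its interval did not overlap theirs. In tubule-led members the angiotensin II level was 2275 CPM (1902 to 2699) and the salt-sensitive level 1187 CPM (513 to 2339), and these intervals overlapped. The log2 ratio over control was 1.46 (0.94 to 2.03), and 1.22 (0.69 to 1.78) in tubule-led members. Members with 3 or more marker UMIs, for which 7.62% of genes were past 2-fold higher and 6.29% lower, gave a log2 ratio of 0.77, and with members weighted equally it was 1.06. Against control library 2 alone it was 1.25, and against control library 1 alone, where Nox4 had 0 UMIs, the fitted 8.80 depends on the pseudocount and is no bound. In late proximal barcodes it was 0.07 (-1.38 to 1.59) and in distal barcodes 0.12 (-0.04 to 0.28). The distal levels of Nox4 were 476, 387, 456 and 371 CPM. The distal control is mostly control library 1 (1814 barcodes, against 832 of control library 2), whereas the members' control is mostly control library 2, so the ratios of these classes rest on different controls.

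Nox4 had a UMI in 43 of 70 angiotensin II members (61.4%), 4 of 13 salt-sensitive members (30.8%), 0 of 8 members of control library 1 and 19 of 55 members of control library 2 (34.5%), at the median depths given above. Thinned to 500 UMIs, the shares were 47.5%, 18.2%, 0% and 23.5%. In distal barcodes they were 42.4%, 39.9%, 38.6% and 19.5% unthinned and 18.5%, 16.2%, 20.2% and 14.0% thinned. In endothelial barcodes they were 3.54%, 4.84%, 10.0% and 0.82%. The higher share in angiotensin II members thus remained at equal depth and was above the distal share of the same library. The thinned salt-sensitive share was close to its distal share, and the share in 8 members of control library 1 has an upper limit of 36.9%.

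Gpx3, the glutathione peroxidase that the proximal tubule secretes into plasma, had 820, 94, 39 and 359 UMIs, or 13702, 5361, 5984 and 8821 CPM. The angiotensin II level was the highest, with a log2 ratio over control of 0.70 (0.53 to 0.88), below 2-fold, and of 0.53 (0.35 to 0.71) in tubule-led members. Against control library 1 alone it was 1.19, past 2-fold, and against control library 2 alone 0.63, and members with 3 or more marker UMIs gave 0.33. In late proximal barcodes the ratio was -0.17 (-0.46 to 0.13) and in distal barcodes 0.39 (0.35 to 0.43). Of the 8 antioxidant and glutathione genes counted, 6 were above 0 and 0 past 2-fold, with a median of 0.36. Txnrd1, a thioredoxin reductase, stood at 0.95 and Fth1, the ferritin heavy chain, at -0.43. Among tubule-led members, 5 of 6 were above 0 with a median of 0.69, and against control library 1 alone the median over 4 genes was -0.41.

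Igsf11, a cell adhesion protein gene, had 77, 11, 2 and 17 UMIs, or 1287, 627, 307 and 418 CPM, and a log2 ratio of 1.66 (0.94 to 2.48). For tubule-led members the salt-sensitive level was 1336 CPM and lay beside the angiotensin II level of 1320 CPM, with both controls lower at 571 and 480 CPM. On 9 and 2 UMIs, the intervals of the salt-sensitive library and control library 1 overlapped the others. Gm19951, a long noncoding RNA, had 70, 11, 2 and 16 UMIs (1.60, 0.85 to 2.45), and its ratio was also 1.22 in distal barcodes. Both Igsf11 and Gm19951 were chosen after their values were seen.

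The naming rule asks for the same direction against each control library. By it, the 10 highest genes of the angiotensin II comparison were Ifitm3, Zdhhc1, Fabp4, Ly6c1, Ly6e, Tbx2, Myo5b, Gm31641, Col4a2 and Prkcz. In control library 1, with 6517 member UMIs, Tbx2 and Col4a2 had 1 UMI each and the others had 0. At that depth 0 UMIs can come from low sampling, so the same direction there is weak agreement. Genes such as Ifitm3 and Fabp4 reached the minimum count almost only through the angiotensin II side. Ifitm3, an interferon-induced antiviral gene, had 22, 14, 0 and 0 UMIs, and the lower limit of its log2 ratio over control was 2.11. Fabp4, a fatty acid binding protein of capillary endothelium, had 28, 0, 0 and 2 UMIs (3.32, 1.48 to 6.58), and Ly6c1, an endothelial surface gene, 19, 19, 0 and 3 (2.23, 0.56 to 4.72). Tubule-led members had 17 UMIs of Ifitm3 in the angiotensin II library and 0 in the other libraries, and in them Fabp4 was at 2.84 (0.94 to 6.09) and Ly6c1 at 2.33 (0.35 to 5.60). Ly6c1 is on the endothelial list that helped to choose the tubule-led members. These endothelial or interferon genes were higher in every tubule class of the angiotensin II library, with log2 ratios in late proximal and distal barcodes of 3.08 and 2.94 for Ifitm3, 3.48 and 4.16 for Fabp4, and 3.91 and 2.75 for Ly6c1. The endothelial list stood at 2189 CPM in angiotensin II members against 688 to 1841 CPM in the controls, and its part in their ratios was not tested.

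Of these 10 genes, Zdhhc1 and Prkcz stood apart from the other tubule classes in value. Zdhhc1, a palmitoyltransferase gene, had 23, 5, 0 and 1 UMIs, a log2 ratio of 3.89 (1.56 to 9.55), against 0.79 in late proximal and 0.90 in distal barcodes. Prkcz, an atypical protein kinase C of epithelial polarity, had 30, 5, 0 and 6 UMIs and a log2 ratio of 1.94 (0.69 to 3.54), against -1.79 and -0.16 in those classes. In tubule-led members the ratios of Zdhhc1 and Prkcz were 3.72 and 1.72, and among members with 3 or more marker UMIs that of Prkcz was 0.82. The salt-sensitive level in tubule-led members, on 4 UMIs for each gene, was 594 CPM for both, against angiotensin II levels of 399 CPM for Zdhhc1 and 521 CPM for Prkcz. The difference between classes itself was not tested.

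**Figure D5:**
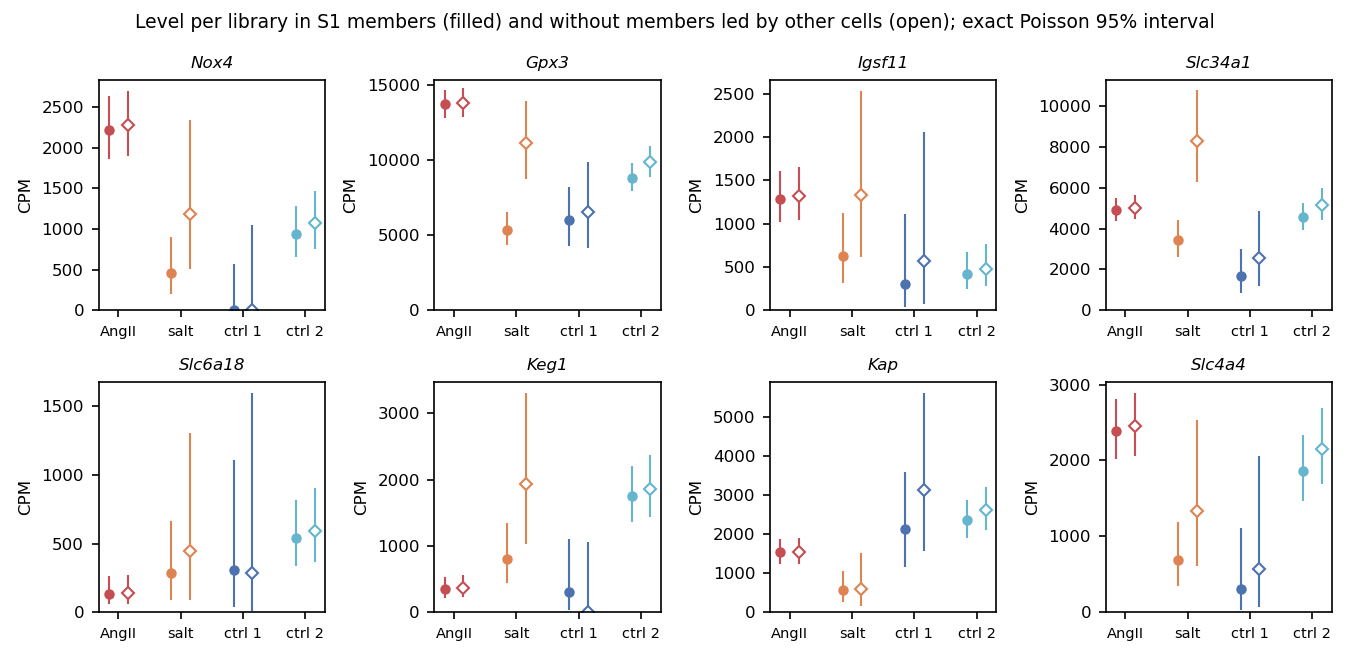
Level in CPM of 8 genes in the members of each library, for all members (filled) and for tubule-led members alone (open), with exact Poisson intervals. The angiotensin II level of Nox4 (2222 CPM) is above the other libraries, and the salt-sensitive levels of Slc34a1, Igsf11 and Keg1 move up when members led by other cells are left out.

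The 10 lowest genes by the same rule included Hspa1a, Rpl39, Rps18, Rps13, Rps10, Rps15a, Cd74, Rps27 and Rps4x, most of them ribosomal protein genes. Hspa1a, a heat shock gene with a near-identical copy, had 0, 1, 1 and 33 UMIs, and 1 of the 33 was in tubule-led members. Cd74, the invariant chain of antigen-presenting cells, had 5, 0, 17 and 7 UMIs, of which 3, 0, 0 and 6 were in tubule-led members. Cd74 is on the myeloid list that helped to choose those members. All 41 ribosomal protein genes counted were below 0 with a median of -1.52 and 32 past 2-fold, but the median was 0.99 over the 8 genes counted in tubule-led members. The 7 injury and dedifferentiation genes, led by Tmsb4x (-2.17) and Tmsb10 (-1.88), had a median of -1.09, and 0.05 over 4 genes in tubule-led members. The lower ribosomal and injury gene levels of the angiotensin II library were thus not seen in the genes still counted there.

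Among tubule-led members, the lowest genes were Hps5 (-2.18), Agps (-2.10), Slc6a18 (-1.99), Slco3a1 (-1.89), Strn3 (-1.80) and Atp11a (-1.77), with Cndp2, Nlk, Pcbp3 and Trak1 between -1.63 and -1.62. Agps makes ether lipids in peroxisomes, Cndp2 is a cytosolic dipeptidase and Slco3a1 is an organic anion carrier. They rested on few reads: Hps5 had 5, 1, 2 and 14 UMIs and Agps 6, 2, 1 and 17. Keg1, a glycine acyltransferase family gene chosen after its values were seen, had 21, 14, 2 and 71 UMIs, or 351, 798, 307 and 1745 CPM. Its log2 ratio was -2.12 (-2.91 to -1.42), with -2.66 in late proximal and -0.99 in distal barcodes. Against control library 1 alone, where it had 2 UMIs, the log2 ratio of Keg1 was 0.19, so its direction rested on control library 2.

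The other lists differed little between the angiotensin II library and the controls, read against 7.07% of all genes higher and 10.5% lower. Gluconeogenesis and sugar handling had 8 of 11 genes above 0 and 0 past 2-fold (median 0.42), with Miox, the inositol oxygenase, at 0.73 and Khk, ketohexokinase, at 0.81. Amino acid and vitamin metabolism had 16 of 23 genes above 0 (median 0.33), with Ddc, which makes dopamine, past 2-fold higher (25 UMIs against 8, 1.28) and Fah (-1.32) and Aass (-1.15) past 2-fold lower. Basolateral exit had 2 of 9 genes past 2-fold higher, Slc16a10 (1.43) and the potassium channel Kcnj16 (1.14), and in tubule-led members these were 1.22 and 0.92. Fatty acid and ketone metabolism had 5 of 10 genes above 0 (median 0.07), with Acsl1 (1.38) past 2-fold higher, Cyp4b1 (-1.31) past 2-fold lower, and their regulator Ppara at 0.96 (79, 8, 5 and 27 UMIs). Organic anion and cation transport had 2 of 12 genes past 2-fold lower, Slc22a30 (-1.41) and Slco1a6. The 13 transcription factors had a median of 0.07 with 0 past 2-fold, Hnf4a at 0.11. Oxidative phosphorylation had 6 of 12 genes above 0 and a median of -0.04. Apical solute uptake had a median of 0.15 over 8 genes, with the sulfate transporter Slc13a1 at 0.78 (105 UMIs against 48). Protein reuptake and lysosome had a median of -0.20 over 7 genes, with the receptors Lrp2 at -0.38 (79 UMIs against 81) and Cubn at 0.81 (47 against 21). Brush border and peptidase genes had a median of 0.14 over 7 genes, with the membrane linker Ezr past 2-fold higher (1.04).

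Genes of hormone and sodium control were too thinly sampled for most comparisons. Of 15 renin-angiotensin and natriuretic genes used, 1 was counted: Cltrn, or collectrin, with 30 UMIs against 16 and a log2 ratio of 0.56. Of 19 sodium and mineralocorticoid genes used, 6 were counted with a median of 0.01. Nr3c1, the glucocorticoid receptor (10 UMIs against 24, -1.58), and the kinase Wnk1 (14 against 24, -1.10) were past 2-fold lower, and Nr3c2, the mineralocorticoid receptor, stood at 0.95. Wnk1 was at -1.24 in tubule-led members, and Nr3c1 then had too few UMIs to be counted.

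The salt-sensitive model was compared with the same controls, on 13 members. Of 578 genes counted, 66 were past 2-fold higher (11.4%) and 154 lower (26.6%), with a median of -0.37 over all genes. TMM scaling shifted the log2 ratios of this comparison by -0.40, to 44 higher and 245 lower genes, and equal weights for members gave 78 and 92. Among tubule-led members, 343 genes were counted, 19 higher (5.54%) and 42 lower (12.2%), with a median of -0.05. The 10 highest genes were Vim, Tm4sf1, Cldn5, Cxcl12, Ltbp4, Ptprb, Ly6c1, Samd12, Ptprm and Fbxl7, several of them endothelial genes. Genes such as Vim (21 UMIs, and 0 in both control libraries) and Cxcl12 (19, and 1 in control library 2) reached the minimum count almost only through the salt-sensitive side. Ptprb, the endothelial receptor phosphatase, had 48 UMIs in salt-sensitive members, a log2 ratio of 5.32 (3.80 to 7.76), and 1 UMI without the 4 members led by other cells. Cldn5, the endothelial claudin, had 27 UMIs, a log2 ratio of 5.88 (3.58 to 11.5), and 1 UMI without them. Vim, an intermediate filament gene, had 21 and 1. These 4 barcodes held nearly all UMIs of Ptprb, Cldn5 and Vim in the salt-sensitive members. Ptprb and Cldn5 are on the endothelial list that singled these barcodes out, so their fall without them is a description only. The 10 lowest genes included Cd74, Tango2, Pcbp3, Hspa1a, Hnf4aos and Fgf1.

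In the 9 remaining salt-sensitive members the early segment genes had a median of -0.35 with 2 of 6 above 0, against -1.13 with 0 of 6 above 0 in all members. Slc34a1 stood at 8310 CPM in tubule-led members, against 5018, 2570 and 5166 CPM in the angiotensin II library and the control libraries, a log2 ratio over control of 0.75 (0.30 to 1.19). With all members it was -0.29 (-0.73 to 0.14), so its sign turned with 4 barcodes. Those 4 were singled out in part by low counts of the early segment list, Slc34a1 included. The rise of Slc34a1 and of the list median without them is thus a description only. Kap, the androgen-regulated kidney protein, was lower in both sets: it had 92, 10, 14 and 96 UMIs, or 1537, 570, 2148 and 2359 CPM. Its log2 ratio over control was -2.02 (-3.13 to -1.10) in all salt-sensitive members and -2.16 (-4.07 to -0.77) in the remaining ones. Tango2 had 0 UMIs in salt-sensitive members and 23 in the controls, and the upper limit of its log2 ratio was -1.09. Among the remaining members that limit was 0.08, so the interval there included no difference.

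Between the 2 hypertension libraries, 759 genes were counted, 246 past 2-fold higher in angiotensin II members (32.4%) and 125 lower (16.5%), with a median of 0.47, and TMM scaling (a shift of 0.39) gave 332 and 99. For tubule-led members, 131 of 561 were higher (23.4%) and 50 lower (8.91%), with a median of 0.13. Among the 10 highest genes were Tnfaip8 (76 UMIs against 3, log2 ratio 2.86, 1.29 to 5.20), Rhobtb1 (72 against 3, 2.78, 1.21 to 5.12), Nedd4l (48 against 2, 2.76, 0.88 to 5.90) and Fhit (136 against 7, 2.49, 1.43 to 3.85). Bicc1, Itpr2, Nox4, Car12, Rora and Slc27a2 completed them. In tubule-led members, Nedd4l, a ubiquitin ligase of sodium channels, stood at 1.47 (-0.44 to 4.58) and Fhit at 1.14 (0.06 to 2.48). The lowest genes included Ptprb, Ptma, Rps29, Meis2 and Tmsb4x, and of the 48 salt-sensitive UMIs of Ptprb 1 was in tubule-led members, which Ptprb helped to choose. Nox4 had a log2 ratio of 2.27 (1.26 to 3.53) in all members and 0.94 (-0.08 to 2.18) without those led by other cells, so a higher level in angiotensin II than in salt-sensitive members was not distinguishable in the remaining 9 barcodes.

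The 2 control libraries were also compared with each other. Of 373 genes counted, 46 were past 2-fold higher in control library 1 (12.3%) and 100 lower (26.8%). These shares were as large as those between a model and the summed controls, but they rest on 6517 member UMIs of control library 1. The angiotensin II comparison had 1231 genes and 59847 member UMIs, so the shares are not on a common scale. Between the controls, TMM scaling, a shift of -0.81, gave 17 and 192. For tubule-led members, 20 of 261 were higher (7.66%) and 79 lower (30.3%). Fut9, a fucosyltransferase gene, had 3 UMIs in control library 1 and 135 in control library 2, a log2 ratio of -2.84 (-5.14 to -1.27). Slc4a4 had 2 against 76 (-2.59, -5.68 to -0.70) and Slc34a1 11 against 186 (-1.43). Early tubule genes of control library 1 members thus lay below those of control library 2, and with 8 members, all at exactly 2 marker UMIs, control library 1 was not shown to hold early proximal tubule cells.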

How the data were processed

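Droplet RNA was measured in 4 libraries of CD31- and podoplanin-selected mouse kidney cells. The authors deposited raw UMI counts of genes by barcodes. Cell Ranger 7.0.0, Seurat 4.1 and mm10 are listed, with no role stated, in the submitters' processing notes. The members and gene lists were chosen with earlier results of these data known. The 3 separate tables hold 12608, 12039 and 11669 genes, and the 11049 genes in all of them were used, with 98.7% to 99.2% of UMIs; none is mitochondrial. Library totals were 7385192, 6408174, 2775302 and 1713062 UMIs (angiotensin II, salt-sensitive, control libraries 1 and 2). All columns of per-sample values were used.

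Counts were summed over the members of a library and scaled to CPM with equal totals. Ratios are log2 of CPM + 5 for genes with 20 or more UMIs over both sides, and their exact 95% intervals are those of the plain ratio of counts. Intervals cover counting error only. With 1 library per group there was no test. For each hypertension library the text names the 10 highest and 10 lowest genes past 2-fold with the same direction against each control library. For the other library pairs it takes those with 50 or more UMIs, and against late proximal barcodes the 10 with the largest ratio nearest to 0 over libraries, all 4 in 1 direction. List examples are those with the largest ratios or highest levels, and others are said to have been chosen after their values were seen. Some genes the rule names are not reported here. Scrublet marked 42 of 10535 barcodes (0.399%), too few for a working call, and 0 members, so doublets were left in. Library pairs shared 7 barcodes, none of them of members.

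The code was tested on simulated data. Alternatives were TMM scaling (edgeR 4.0.16, R 4.3.3), pseudocounts of 1 and 20 CPM, minimums of 1 and 50 UMIs, each control library left out, members weighted equally or thinned to 500 UMIs, stricter member rules, Scrublet calls left out, and the joined hypertension table. There, 70 barcodes of the angiotensin II library met the rule, 53 of them members here. Leaving out members led by other cells, which keeps the tubule-led members, was chosen after seeing the data. Python 3.11.15 was used with numpy 2.4.6, scipy 1.17.1, pandas 2.3.3, matplotlib 3.10.9, scanpy 1.11.5 and anndata 0.12.19. Coordinates are GENCODE vM21 on GRCm38, the assembly of mm10.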

Additional observations from a re-analysis of the deposited data

Results flagged for a closer look

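Tnfaip8, a TNF-induced regulator of cell death, went in opposite directions in the hypertension libraries against each control library. It had 76 UMIs in angiotensin II members, 3 in salt-sensitive members, 5 in control library 1 and 24 in control library 2, or 1270, 171, 767 and 590 CPM. Its log2 ratio over control was 1.04 (0.41 to 1.72) in the angiotensin II library and -1.81 (-4.20 to -0.15) in the salt-sensitive library. Without the members led by other cells the ratios of Tnfaip8 were 1.11 (0.43 to 1.86) and -0.40 (-2.79 to 1.32). Its angiotensin II ratio was 0.68 in late proximal and -0.02 in distal barcodes. The 2 comparisons share their controls, and the difference between them was not tested.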

How the results depend on the processing

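Of 106 alternative counts of genes past 2-fold, 55 were within 1.5 times the main count and 51 were not. The settings count different numbers of genes, so a count can fall while its share rises. With a minimum of 1 UMI the higher and lower counts were 2711 and 2372 for angiotensin II over control, 2489 and 3918 for salt-sensitive over control, 4291 and 2392 for angiotensin II over salt-sensitive and 1999 and 5101 for control library 1 over 2. With 50 UMIs they were 11 and 16, 9 and 26, 66 and 11, and 2 and 14, since fewer genes are counted. Members thinned to 500 UMIs gave 34 and 25, 2 and 14, 53 and 6, and 1 and 24. A marker sum of 3 or more gave 40 and 33 of 525 genes (7.62% and 6.29%) for angiotensin II over control. For salt-sensitive over control it gave 15 and 74 of 110 (13.6% and 67.3%). For angiotensin II over salt-sensitive it gave 213 and 44 of 368 (57.9% and 12%). It gave no value between the controls, where control library 1 had 0 such members, and the member shares were then 1.66%, 0.122%, 0% and 1.29%. Leaving out members led by other cells gave 75 lower for angiotensin II over control, 19 and 42 for salt-sensitive over control, 131 and 50 for angiotensin II over salt-sensitive and 20 higher for control library 1 over 2. A late proximal sum of 0 gave 41 higher genes for salt-sensitive over control and 71 lower for angiotensin II over salt-sensitive. An endothelial sum of 0 gave 32 and 93 for salt-sensitive over control, and 86 and 24 between the hypertension libraries. TMM scaling gave 245 lower for salt-sensitive over control, and 17 and 192 between the controls. Equal weights gave 92 lower for salt-sensitive over control and 154 higher between the hypertension libraries, and joining the hypertension tables gave 73 lower for angiotensin II over control. Leaving out 1 control library gave 80 to 223 higher and 57 to 112 lower genes for angiotensin II, and 32 to 78 higher and 13 to 142 lower for salt-sensitive; the values farthest from the main ones came without control library 2.

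Of list medians 11 changed sign, and of single genes 14. For angiotensin II over control, the ribosomal median was 0.56 thinned, 0.064 in the joined table and 0.99 without members led by other cells, and the injury median was 0.17 in the joined table and 0.054 without those members. In the joined table Cd74 was at 3.25 and Rps13 at 0.14, and Keg1 ran from -2.30 without control library 1 to 0.19 without control library 2. For angiotensin II over salt-sensitive, an endothelial sum of 0 gave medians of -0.012 for basolateral exit, -0.17 for apical uptake, 1.81 for ribosomal and 3.29 for injury genes, and leaving out members led by other cells gave 0.97 and 3.08 for the latter pair. In these settings Actb was at 6.501 and 6.40 (0.095 in the joined table) and Tmsb4x at 6.81 and 6.34. Fau was at 1.68 and 1.63, Rpl41 at 1.93 and 1.91, and Tpt1 at 1.61 and 1.52. Among tubule-led members Tmsb4x had 23 UMIs in the angiotensin II library and 0 in the salt-sensitive library. Its 6.34 thus depends on the pseudocount and is no bound, and so do its 6.81 and the 6.501 and 6.40 of Actb. There the ribosomal median rested on 4 genes with 100 UMIs against 6. The injury median rested on 4 genes, 2 above 0 and 2 below. Beyond the smaller numbers of genes and members, the cause of the sign changes was not tested. No paired analysis was possible because each group is 1 library and no result comes from a test. Depth limits the salt-sensitive library and control library 1, with 17533 and 6517 member UMIs.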
